A study of Mus musculus with 26 samples.

Results

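The p53 axis was followed through 10 genes in CD-1 mouse embryos, in libraries that each hold a single inner cell mass (ICM). They are Trp53, which encodes p53, its inhibitor Mdm2, and 8 p53 targets of cell cycle arrest, stress and death (Cdkn1a, Ccng1, Trp53inp1, Zmat3, Sesn1, Bax, Bbc3 and Pmaip1). The genes were taken by symbol, and all 10 were found among the 55254 symbols of the table. All 10 also passed the expression filter (5 or more libraries at a TPM of 1 or more), which left 12034 genes in the test. TPM is a library's share of transcripts for a gene, corrected for transcript length and scaled to a fixed total.

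The 26 libraries were made by FLASH-seq, which reads polyadenylated RNA of very small samples along the whole transcript. Morulae of stage E2.75 were kept in culture for 24 hours. They received LY294002 (LY, a PI3K inhibitor) at 10 µM together with FGF4/heparin at 1 µg/ml (LY+FGF4, 6 ICMs), LY alone (7 ICMs), FGF4/heparin alone (FGF4, 8 ICMs) or the DMSO vehicle (DMSO, 5 ICMs). The zona pellucida of all embryos was removed, and immunosurgery, which kills the outer cells, left the ICM. Each treatment drew on a mixture of embryos from 5 litters, and the litter of each ICM is not known. PI3K activity was not measured in these libraries. A TPM value of a whole ICM cannot tell fewer cells of a type from less RNA per cell.

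p53 is a transcription factor that is kept low by MDM2, a ubiquitin ligase whose own gene p53 activates, so the pair forms a feedback loop. When p53 builds up, it turns on genes that stop the cell cycle, above all Cdkn1a (p21, an inhibitor of cyclin-dependent kinases), and genes of the BCL2 family that open the mitochondrial outer membrane. In other cell types AKT, a kinase downstream of PI3K, phosphorylates MDM2 and promotes its action against p53. Several of these genes also respond to factors other than p53, among them FOXO factors and, for Pmaip1, the stress-response factor ATF4.

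The libraries differed in how many genes they listed at TPM of at least 1. The number ran from 7486 to 9534 in LY+FGF4, from 9860 to 10215 in LY, from 8315 to 10871 in FGF4 and from 10212 to 11367 in DMSO. 4 LY+FGF4 and 2 FGF4 libraries were under 9000. TPM keeps no read depth, so the reads behind a value are unknown here, and 0 means only that a gene was listed at 0. The 5 general ICM markers looked at (Pou5f1, Sall4, Esrrb, Tfcp2l1 and Zfp42) had a median TPM of at least 1 in each group. The summed TPM of 10 trophectoderm markers, which mark the outer layer that immunosurgery removes, was 231 to 1202 in LY+FGF4, 871 to 1375 in LY, 406 to 1231 in FGF4 and 712 to 1404 in DMSO. Transcripts of these markers were thus present in every library, while Elf5 was above 0 in only 1 LY and 1 DMSO library, at 1.72 and 2.29 TPM.

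Trp53 and Bax were called in none of the 7 comparisons, with the smallest unadjusted p of Bax at 0.0562 and of Trp53 at 0.133. Trp53 averaged 82.5 ± 47.8 TPM in LY+FGF4 (SD, n = 6), 102 ± 32.1 in LY (n = 7), 66.8 ± 31.7 in FGF4 (n = 8) and 69.3 ± 25.5 in DMSO (n = 5). Its transcript was thus present in each condition, and the 4 groups overlapped. LY+FGF4 replicate 2, where Trp53 was listed at 0, stood apart. Bax, which encodes a pore-forming protein of the BCL2 family, had the highest median of the 10 genes over all libraries, 257 TPM. It ran from 176 to 350 TPM in LY+FGF4, from 199.0 to 479 in LY, from 145 to 340.4 in FGF4 and from 251 to 410 in DMSO.

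Over all libraries Mdm2 had a median of 182 TPM (9.11 to 736), Pmaip1 84.0 TPM (10.7 to 497), Ccng1 60.5 TPM (16.1 to 208) and Cdkn1a 50.0 TPM (0 to 310.4). Sesn1, Trp53inp1, Bbc3 and Zmat3 were low, with medians of 24.9, 9.38, 9.19 and 4.11 TPM. Bbc3 (PUMA, a BH3-only protein that activates BAX) was listed at 0 in 9 of 26 libraries, Trp53inp1 and Zmat3 in 3 each, and Trp53 and Cdkn1a in 1 each.

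**Figure D1:**
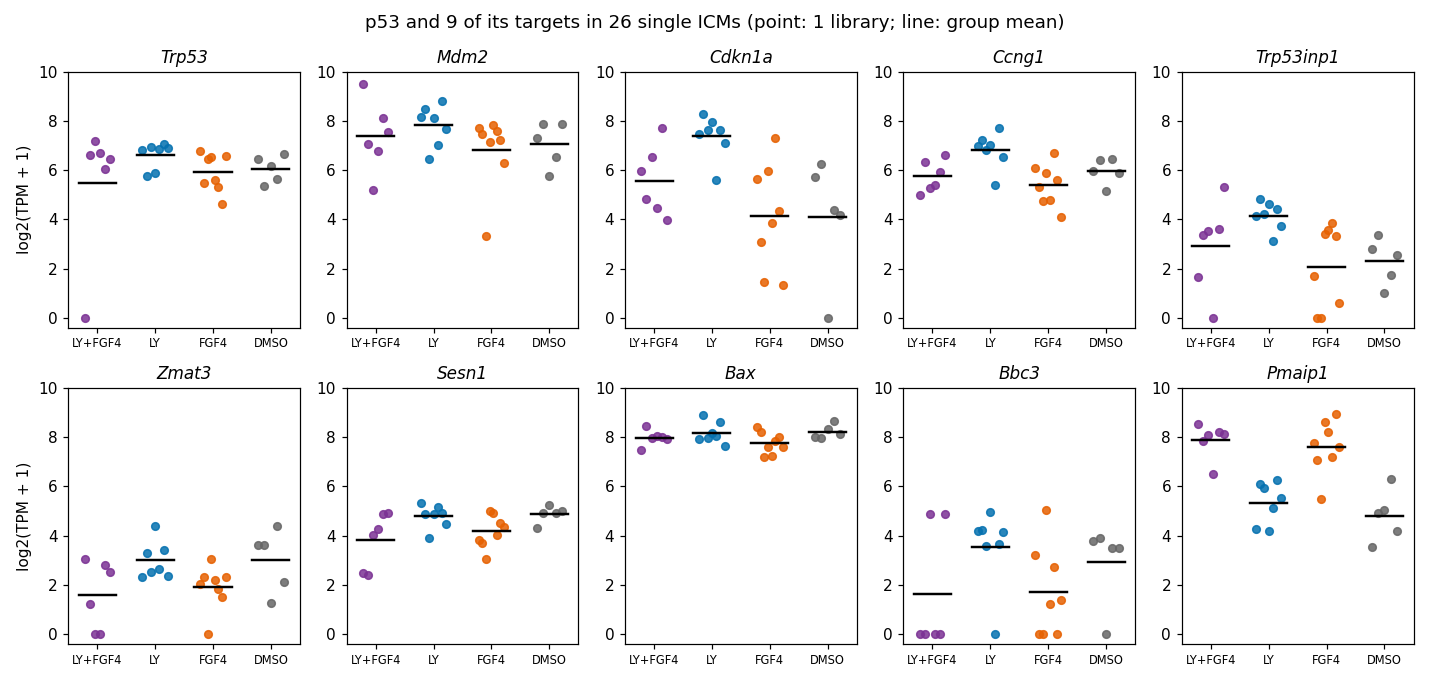
Levels of the 10 genes in every library, as log2(TPM + 1) on the vertical axis, by treatment on the horizontal axis. Each point is 1 ICM (6 LY+FGF4, 7 LY, 8 FGF4, 5 DMSO) and the black line is the group mean of log2(TPM + 1). Pmaip1 sits higher in both groups with FGF4, and all LY libraries but 1 lie above every DMSO library for Cdkn1a.

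Pmaip1 (NOXA, a BH3-only protein that binds and neutralises MCL1) was the member called most often, in each comparison that adds FGF4. Under LY+FGF4 the libraries had 90.5, 232, 269, 284, 292 and 373 TPM. With FGF4 alone the lowest, median and highest values were 43.5, 205 and 497 TPM. With LY alone they were 17.4, 45.7 and 76.1 TPM, and the DMSO libraries had 10.7, 17.1, 29.4, 31.8 and 77.4 TPM. Every LY+FGF4 library was above every LY and every DMSO library, which held for 0.623% and 1.74% of all genes tested. FGF4 and DMSO overlapped through FGF4 replicate 3 at 43.5 TPM, which lies below DMSO replicate 8 at 77.4 TPM, and the other 7 FGF4 libraries were above all of DMSO.

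Differences were tested with limma on log2(TPM + 1) over all genes tested, with Benjamini-Hochberg adjustment, and a gene was called at an adjusted p under 0.05. The +1 makes fold changes of low genes come out too small. Pmaip1 rose with FGF4 against DMSO (log2 fold change 2.82, SE 0.50, adjusted p = 0.00220). It rose with FGF4 in the presence of LY as well (LY+FGF4 against LY, 2.55, SE 0.49, adjusted p = 0.00230). Both agents together against DMSO gave 3.10 (SE 0.53, adjusted p = 0.000632). LY did not move Pmaip1 past the threshold without FGF4 (0.55, SE 0.51, adjusted p = 0.885) or with it (0.28, SE 0.47, adjusted p = 0.801). The difference between these LY effects was -0.27 (SE 0.70, adjusted p = 0.980), so a different effect of LY with FGF4 was not detected.

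Pmaip1 was 1 of 10 members called with FGF4 against DMSO, where 2.44% of all genes were called and 0.981% were called higher. It was also the 1 of 10 called in LY+FGF4 against LY, where 6.3% of genes were called and 1.79% were called higher, and in LY+FGF4 against DMSO, where these shares were 9.5% and 2.19%. These comparisons share libraries and are not independent. Both calls against DMSO held in all 34 other settings tried. The call in LY+FGF4 against LY was lost without the 6 libraries under 9000 genes (2.01, adjusted p = 0.0704), where LY+FGF4 has only replicates 6 and 7.

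Sums of primitive endoderm markers were higher in every LY+FGF4 than in every LY library and higher in every FGF4 than in every DMSO library, while LY+FGF4 and DMSO overlapped. The summed TPM of 10 such markers was 833 to 2651 in LY+FGF4, 181 to 385 in LY, 1493 to 2704 in FGF4 and 444 to 933 in DMSO. That of 10 epiblast markers was 237 to 656 in LY+FGF4, 696 to 1186 in LY, 109.8 to 542 in FGF4 and 873 to 1260 in DMSO. Of the 10 primitive endoderm markers, 1 was at 0 in all LY+FGF4 libraries, 2 in all LY, 0 in all FGF4 and 1 in all DMSO libraries. The part of these lineage differences in the Pmaip1 result was not tested. Pmaip1 spans 66458533 to 66465565 on chromosome 18 (GRCm38, GENCODE M21), with no other annotated gene over it.

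Cdkn1a, the arrest gene of the group, had its highest group mean in ICMs cultured with LY alone. Those libraries had 47.8 TPM at the lowest, 196 at the median and 310.4 at the highest. DMSO libraries had 0, 17.1, 19.9, 51.7 and 75.6 TPM. All LY libraries except replicate 6 (47.8 TPM) were above all DMSO libraries, and the share of all genes doing so was not counted. The means were 187 ± 83.1 TPM with LY (SD, n = 7) and 32.9 ± 30.3 TPM in DMSO (n = 5).

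The difference between LY and DMSO did not pass the test after adjustment over all genes (log2 fold change 3.27, SE 0.96, unadjusted p = 0.00189, adjusted p = 0.147). In that comparison 0.374% of all genes were called, and 0 of 10 members. At an unadjusted p under 0.05 there were 8.59% of all genes and 2 of 10 members, Cdkn1a and Trp53inp1. With library weights Cdkn1a was called (2.97, adjusted p = 0.0352), in a fit that called 496 of all 12034 genes. Without DMSO replicate 7, in which Cdkn1a was listed at 0, the log2 fold change was 2.24 (adjusted p = 0.491).

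With FGF4 present the Cdkn1a values of the groups overlapped. LY+FGF4 libraries had 14.7, 21.2, 27.3, 61.0, 91.7 and 209 TPM, and FGF4 libraries had 1.52 TPM at the lowest, 16.6 at the median and 158 at the highest. The log2 fold change of LY+FGF4 against FGF4 was 1.46 (SE 0.88, adjusted p = 0.382). In that comparison 0 of 10 members were called by limma, and 3.55% of all genes. At an unadjusted p under 0.05 there were 0 of 10 members and 2258 of all 12034 genes. Averaged over both backgrounds, the LY effect on Cdkn1a was 2.36 (SE 0.65, adjusted p = 0.0321). Cdkn1a was thereby the 1 of 10 members called for the pooled LY effect, where 4.64% of all genes were called and 1.04% were called higher.

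The pooled call was lost in 10 of 34 other settings, with log2 fold changes of 1.85 to 2.79 and adjusted p of 0.0503 to 0.124. These were a pseudocount of 0.1, no expression filter, the replicate block, library weights, leaving out the 6 libraries under 9000 genes, and leaving out DMSO replicate 7 or 9, LY+FGF4 replicate 5 or 7, or LY replicate 3. The test of a different LY effect with and without FGF4 gave -1.81 (SE 1.30, adjusted p = 0.899). FGF4 alone gave 0.01 against DMSO (SE 0.93, adjusted p = 0.998).

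Ccng1 (cyclin G1, which recruits a phosphatase to MDM2) and Trp53inp1 (a stress protein that acts in p53 signalling and autophagy) had a like pattern of levels, without a call. Ccng1 had 41.2 TPM at the lowest, 127 at the median and 208 at the highest with LY, against 34.7, 58.1, 60.9, 83.8 and 86.5 TPM in DMSO. Trp53inp1 had 7.74, 17.5 and 27.2 TPM at the same points with LY, against 1.01, 2.30, 4.92, 6 and 9.35 TPM in DMSO. For both genes, as for Cdkn1a, LY replicate 6 was the lowest LY library and the only one that did not lie above all DMSO libraries. How many of all genes show LY above DMSO with 1 such exception was not counted. The log2 fold changes were 0.84 for Ccng1 (SE 0.42, adjusted p = 0.594) and 1.85 for Trp53inp1 (SE 0.80, adjusted p = 0.476). Without LY replicate 6 they were 1.08 (adjusted p = 0.383) and 2.02 (adjusted p = 0.491), still without a call.

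With FGF4 present the groups overlapped for both genes. Ccng1 ran from 31.3 to 96.4 TPM in LY+FGF4 and from 16.1 to 103 TPM in FGF4 (log2 fold change 0.36, adjusted p = 0.666). Trp53inp1 ran from 0 to 38.7 TPM in LY+FGF4 and from 0 to 13.4 TPM in FGF4 (0.86, adjusted p = 0.565). FGF4 added to LY (LY+FGF4 against LY) gave -1.80 for Cdkn1a (SE 0.91, adjusted p = 0.248) and -1.23 for Trp53inp1 (SE 0.76, adjusted p = 0.360). It gave -1.06 for Ccng1 (SE 0.40, adjusted p = 0.108), which passed the threshold only without LY replicate 6 (-1.29, adjusted p = 0.0457). With the number of genes listed in each library as a covariate (the gene-number fit), Cdkn1a gave -0.57 and Trp53inp1 -0.049 in LY+FGF4 against LY. Every LY+FGF4 library listed fewer genes (at most 9534) than every LY (at least 9860) or DMSO library (at least 10212). Gene number is thus confounded with LY+FGF4 in comparisons with those groups, and the gene-number fit cannot fully separate them. A call lost in it need not mean a smaller log2 fold change.

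**Figure D2:**
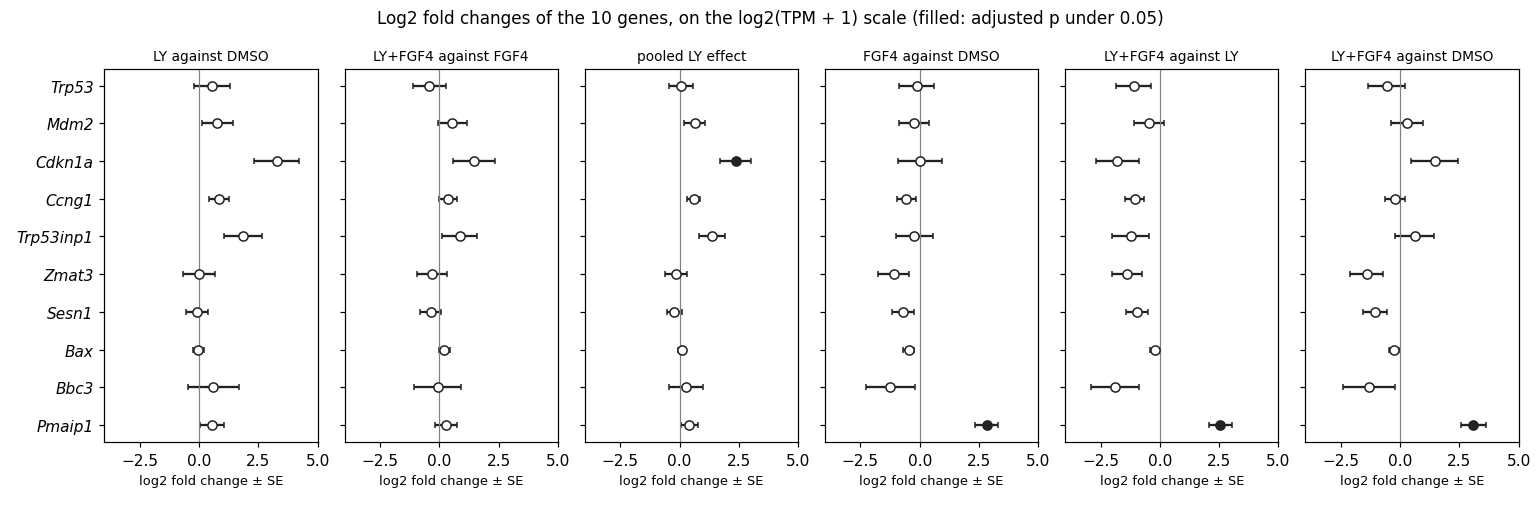
Log2 fold changes of the 10 genes (horizontal axis, log2(TPM + 1) scale) in 6 comparisons, with bars of 1 SE. Filled points have an adjusted p under 0.05: Cdkn1a at 2.36 for the pooled LY effect, and Pmaip1 at 2.82, 2.55 and 3.10 in the comparisons that add FGF4.

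Promoters of Cdkn1a, Ccng1 and Bbc3, all well known direct targets of p53, are shown to let the letters be compared, those of Cdkn1a and Ccng1 as the windows with the fewest mismatches to the p53 element. Whether such matches go with a response to LY was not tested. A p53 response element is a pair of 10-base arms, and the 20-base form with no gap between them was searched in RefSeq promoter windows (250 bases before to 50 after a start, GRCm38.p6). The element reads the same on both strands. Windows were found for 7 of the 10 genes, 11 windows in all, and capitals mark the best match in each. Each line below holds the match with 20 bases on either side. The best match of Cdkn1a ends 31 bases before the upstream of its 2 starts and has 1 mismatch to the element (printed stretch chr17:29090908-29090967, plus strand). That of Ccng1 ends 175 bases before the start and also has 1 mismatch (chr11:40755442-40755501, minus strand). Only 0.0883% of the 32851 windows of all genes hold a match with as few. The best match of Bbc3 (chr7:16309466-16309525, plus strand) has 3 mismatches, which 6.29% of all windows reach.
Cdkn1a: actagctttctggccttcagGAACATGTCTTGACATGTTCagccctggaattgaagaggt
Ccng1: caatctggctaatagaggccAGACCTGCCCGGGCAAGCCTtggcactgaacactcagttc
Bbc3: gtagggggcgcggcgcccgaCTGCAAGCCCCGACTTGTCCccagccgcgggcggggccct

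The matches are letters in these windows, and binding of p53 was not measured. The windows of Trp53 and Bax, 1 of the 2 windows of Sesn1, and 1 of the 3 of Bbc3 had 3 mismatches as their best match. The single Mdm2 window, the downstream window of Cdkn1a and 1 more of Bbc3 had 5, which 76.6% of all windows reach. The other Sesn1 window and the most downstream window of Bbc3 had 6, which 98.5% reach. Pmaip1, Trp53inp1 and Zmat3 had no window. The p53-responsive promoter of Mdm2 is known to lie within the gene, and that stretch was not searched here.

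Mdm2 levels were wide in each group. LY+FGF4 libraries had 35.3, 109, 134, 189, 274 and 736 TPM. With LY the lowest, median and highest were 87.4, 280.2 and 446 TPM, with FGF4 9.11, 163 and 230 TPM, and DMSO libraries had 53.2, 90.9, 158, 232 and 236 TPM. All 4 groups overlapped. The log2 fold change was 0.76 for LY against DMSO (SE 0.65, adjusted p = 0.867) and 0.65 for the pooled LY effect (SE 0.44, adjusted p = 0.448). LY+FGF4 replicate 2, with the highest Mdm2 value at 736 TPM, was the library in which Trp53 was listed at 0, and it listed 7486 genes, the fewest of the 26.

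Sesn1, Zmat3 and Bbc3 gave no call in any comparison. Sesn1, a sestrin that restrains mTORC1, averaged 16.6 ± 10.97 TPM in LY+FGF4, 27.7 ± 8.24 in LY, 18.8 ± 8.46 in FGF4 and 28.9 ± 6.57 in DMSO. Zmat3, an RNA-binding zinc finger protein, averaged 3.22 ± 3.18 TPM in LY+FGF4, 8.10 ± 5.71 in LY, 3.29 ± 2.07 in FGF4 and 9.50 ± 7.48 in DMSO. Both had lower means in the 2 groups that received FGF4, and the groups overlapped. In LY+FGF4 against DMSO, the log2 fold changes were -1.05 for Sesn1 (SE 0.49, adjusted p = 0.180) and -1.41 for Zmat3 (SE 0.69, adjusted p = 0.206). Over the 34 other settings they ran from -1.27 to -0.076 for Sesn1 and from -2.48 to -1.06 for Zmat3, without a call.

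Bbc3 was listed at 0 in 4 of 6 LY+FGF4, 1 of 7 LY, 3 of 8 FGF4 and 1 of 5 DMSO libraries. Where it was above 0 it reached at most 28.5 TPM in LY+FGF4, 30.2 in LY, 32.4 in FGF4 and 14.1 in DMSO. Its largest log2 fold change was that of LY+FGF4 against LY (-1.91, SE 1.01, adjusted p = 0.275). The LY+FGF4 group also had the fewest genes listed, and the part of this in the zeros was not tested. Bax gave -0.04 for LY against DMSO (SE 0.24, adjusted p = 0.995), -0.46 for FGF4 against DMSO (SE 0.23, adjusted p = 0.340) and 0.09 for the pooled LY effect (SE 0.16, adjusted p = 0.818). Trp53 gave 0.56 for LY against DMSO (SE 0.76, adjusted p = 0.949) and -0.13 for FGF4 against DMSO (SE 0.74, adjusted p = 0.962). LY+FGF4 against FGF4 gave -0.42 for Trp53 (SE 0.70, adjusted p = 0.796), and 0.68 without LY+FGF4 replicate 2 (adjusted p = 0.310). Of the 2 BH3-only genes, Pmaip1 was called in 3 comparisons and Bbc3 in 0, and the difference between them was not tested.

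Seen as a list, 7 of the 10 members had a positive log2 fold change with LY against DMSO, with a median of 0.58. Over all genes 5139 of 12034 were positive and the median was -0.10. With LY on top of FGF4 (LY+FGF4 against FGF4), 6 of 10 were positive with a median of 0.25. Over all genes 4392 of 12034 were positive there, with a median of -0.24. With FGF4 against DMSO 8 of 10 were negative (median -0.35), beside 6747 of 12034 over all genes (median -0.10). Of the 10, 9 were negative in LY+FGF4 against LY (median -1.08), Pmaip1 being the exception. Over all genes 7359 of 12034 were negative in that comparison (median -0.24). The interaction called 0 of 10 members by limma, with 0 at an unadjusted p under 0.05, beside 0.0499% of all genes called and 6.03% at that unadjusted p.

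Within a group the members varied from library to library, and some libraries were low or high in most of them. LY replicate 7 was above the LY median in 9 of the 10 genes and LY replicate 3 in 8, while LY replicates 6 and 8 were above it in 1 each. FGF4 replicate 4 was above the FGF4 median in 8 genes and FGF4 replicate 3 in 1. LY+FGF4 replicate 7 was above its group median in 8 genes, and the other LY+FGF4 libraries in 3 to 7. The DMSO libraries were above theirs in 3 to 6. The share of all genes above the group median in each library was not counted, so a shift of the whole library cannot be told apart here.

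FGF4 replicate 3 had the lowest values of its group for Mdm2 (9.11 TPM), Pmaip1 (43.5 TPM), Sesn1 (7.32 TPM) and Bax (145 TPM), and Trp53inp1 and Zmat3 were listed at 0. Its Trp53 value was 86.9 TPM, within the range of the other FGF4 libraries. It listed 8885 genes, against 10504.5 at the group median. DMSO replicate 7 had the lowest DMSO values of Mdm2 (53.2 TPM), Ccng1 (34.7 TPM), Trp53inp1 (1.01 TPM) and Zmat3 (1.41 TPM), and Cdkn1a and Bbc3 were listed at 0. It had the highest DMSO value of Sesn1 (36.7 TPM) and was also above the DMSO median for Bax (325 TPM) and Pmaip1 (31.8 TPM). Its Trp53 value was 71.4 TPM, the median of its group.

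**Figure D3:**
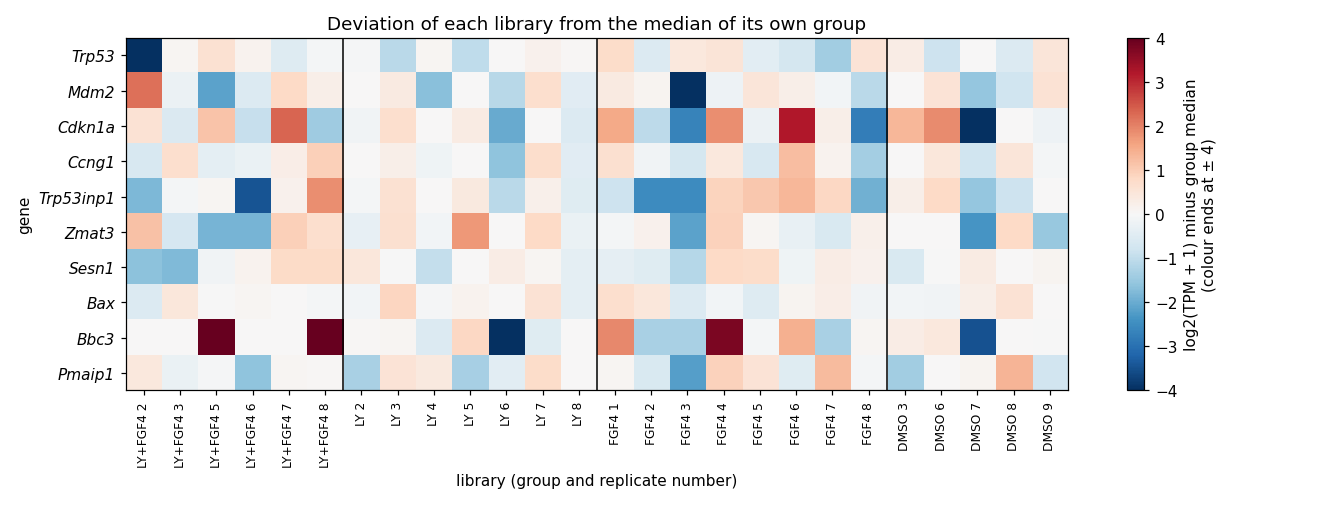
Each library's log2(TPM + 1) minus the median of its own group (colour) for the 10 genes (rows) in 26 libraries (columns), with black lines between groups. FGF4 replicate 3, LY replicate 6 and DMSO replicate 7 are low in several genes at once, with Mdm2 at 9.11 TPM, Cdkn1a at 47.8 TPM and Cdkn1a listed at 0.

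Further genes of the pathway were read from lists written from textbook knowledge. Of 43 other p53 targets, 39 were tested. With LY against DMSO 0 of them were called by limma, with 5 at an unadjusted p under 0.05, beside 8.59% of all genes at that p. There 28 were positive and 11 negative, with a median log2 fold change of 0.23. The 2 with the smallest p, both called with library weights (adjusted p = 0.0102 and 0.0119) and without the 6 libraries under 9000 genes (0.0350 and 0.0343), were Gadd45a, a stress gene that binds cell cycle kinases (-3.58, adjusted p = 0.148), and the polo-like kinase gene Plk2 (3.30, adjusted p = 0.260). Those 2 fits called 496 and 130 of all 12034 genes. For the pooled LY effect Sfn rose (14-3-3 sigma, a G2 arrest protein, 1.05, adjusted p = 0.00504) and Gadd45a fell (-2.83, adjusted p = 0.0188). Of all genes 1.04% were called higher and 3.6% lower for the pooled LY effect. The Gadd45a call was lost with the replicate block (-2.44, adjusted p = 0.135) and in the gene-number fit (-1.12, adjusted p = 0.519), and that of Sfn without the 6 libraries under 9000 genes (0.68, adjusted p = 0.0911).

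Gadd45a averaged 5.31 ± 9.09 TPM in LY+FGF4, 2.93 ± 5.90 in LY, 19.4 ± 16.03 in FGF4 and 27.9 ± 21.1 in DMSO. It was listed at 0 in 4 of 6 LY+FGF4, 5 of 7 LY, 2 of 8 FGF4 and 0 of 5 DMSO libraries. Gadd45a is also a known ATF4 target. Plk2 ran from 9.27 to 66.1 TPM with LY and from 0 to 7.21 TPM in DMSO, so these groups did not overlap, which held in that direction for 0.806% of all genes. Sfn averaged 594 ± 223 TPM in LY+FGF4, 1205 ± 317 in LY, 241 ± 133 in FGF4 and 749 ± 202 in DMSO, and it is also an epithelial gene.

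With FGF4 against DMSO 3 of the 39 other targets fell and 0 rose, where 1.46% of all genes were called lower. They were Sfn (-1.79, adjusted p = 0.00205), Perp, a membrane protein of desmosomes and apoptosis (-2.60, adjusted p = 0.0162), and Ei24, a membrane protein of the endoplasmic reticulum (-2.20, adjusted p = 0.0187). The median of the list was -0.70, beside -0.10 over all genes. Sfn passed in all 34 other settings. Perp was not called without DMSO replicate 6 or 7 (adjusted p = 0.0614 and 0.0609), nor Ei24 without DMSO replicate 3, 6 or 7 (0.0526, 0.0522 and 0.0887). Both were also lost with the replicate block (adjusted p = 0.0945 for Perp and 0.0940 for Ei24), and Perp in the gene-number fit (adjusted p = 0.0612). The trophectoderm sums given above had medians of 466 TPM in FGF4 and 905 TPM in DMSO, and their part in the falls of Sfn and Perp was not tested.

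In LY+FGF4 against LY 4 of 39 other targets fell and 0 rose, with a list median of -0.79, where 4.5% of all genes were called lower. Ei24 (-2.31, adjusted p = 0.00682) and Zfp385a, a zinc finger protein that binds p53 (-2.73, adjusted p = 0.0125), passed whichever library was left out, but not in the gene-number fit (-2.37, adjusted p = 0.0902, and -1.94, adjusted p = 0.281). Fdxr, a mitochondrial ferredoxin reductase (-2.46, adjusted p = 0.0271), did not pass without LY+FGF4 replicate 2 or 3 or LY replicate 2 or 3 (adjusted p = 0.0536 to 0.0758). It gave -0.78 without the 6 libraries under 9000 genes (adjusted p = 0.393) and -1.68 in the gene-number fit (adjusted p = 0.384), and was also lost with the replicate block and library weights. Sfn (-1.06, adjusted p = 0.0356) did not pass without LY+FGF4 replicate 2, 6, 7 or 8 or LY replicate 2, 3, 4, 6 or 8 (adjusted p = 0.0507 to 0.0775), nor in the gene-number fit (-0.71, adjusted p = 0.424), with the replicate block or with no filter.

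Of the 39, Sfn alone was called in LY+FGF4 against FGF4, where 0.723% of all genes were called higher and 2.83% lower. It rose (1.41, adjusted p = 0.00779) whichever library was left out, but was not called with library weights (1.24, adjusted p = 0.0576) or without the 6 libraries under 9000 genes (0.67, adjusted p = 0.401). Ei24 (-2.14, adjusted p = 0.0153) and Fdxr (-2.77, adjusted p = 0.0174) fell in LY+FGF4 against DMSO, where 7.3% of all genes were called lower. Ei24 was not called without DMSO replicate 7 (adjusted p = 0.0570), nor Fdxr without DMSO replicate 6 (0.0554). Without the 6 libraries under 9000 genes Ei24 gave -1.79 (adjusted p = 0.0577) and Fdxr -1.08 (adjusted p = 0.225), and in the gene-number fit -2.22 (adjusted p = 0.228) and -1.61 (adjusted p = 0.533). Fdxr was also lost with the replicate block (adjusted p = 0.0740). The small GTPase gene Rap2b rose in LY+FGF4 against DMSO (1.195, adjusted p = 0.0372), where 2.19% of all genes were called higher. It was not called without DMSO replicate 6, 7 or 8 or LY+FGF4 replicate 3, 5, 6 or 8 (adjusted p = 0.0537 to 0.124), nor in 4 other settings (adjusted p = 0.0513 to 0.183).

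Of 27 regulators and cofactors of p53, 25 were tested. None were called by limma with LY against DMSO (1 at an unadjusted p under 0.05, beside 8.59% of all genes). There the deacetylase gene Hdac1 (0.57, adjusted p = 0.365) and the acetyltransferase gene Kat5 (-0.52, adjusted p = 0.733) came first. Hdac1 was called with library weights (adjusted p = 0.0265), where 496 of all 12034 genes were. None were called with FGF4 against DMSO either (5 at an unadjusted p under 0.05, beside 1865 of all 12034 genes). Rpl11, a ribosomal protein that can bind MDM2 (-0.58, adjusted p = 0.103), and Hdac1 (-0.59, adjusted p = 0.140) came first. Both were called with library weights (adjusted p = 0.0190 and 0.0267), where 1074 of all genes were. In LY+FGF4 against LY 2 of the 25 were called lower, where 4.5% of all genes were, and 1 higher, where 1.79% were. Hdac1 (-0.93, adjusted p = 0.00682) and the checkpoint kinase gene Chek2 (-1.63, adjusted p = 0.0151) fell in that comparison, whichever library was left out. Neither was called in the gene-number fit (-0.84, adjusted p = 0.133, and -1.99, adjusted p = 0.0621). Kat5 rose (1.08, adjusted p = 0.0286), but not without LY+FGF4 replicate 2 or 5 or LY replicate 3 or 6 (adjusted p = 0.0501 to 0.0755), nor in the gene-number fit (0.62, adjusted p = 0.468), with library weights or without the 6 libraries under 9000 genes. Chek2 averaged 247 ± 162 TPM in LY+FGF4, 633 ± 204 in LY, 296 ± 155 in FGF4 and 396 ± 133 in DMSO.

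For LY+FGF4 against FGF4 0 regulators were called (3 at an unadjusted p under 0.05, beside 2258 of all 12034 genes), with Ppp1r13l (-1.63, adjusted p = 0.151) and Kat8 (1.01, adjusted p = 0.172) first. For the pooled LY effect 0 were called (3 at an unadjusted p under 0.05, beside 2308 of all genes), with Hdac1 (0.40, adjusted p = 0.120) and Ppp1r13l (-1.03, adjusted p = 0.220) first. Ppp1r13l, which encodes the p53 inhibitor iASPP, was called lower in LY+FGF4 against DMSO (adjusted p = 0.0257), as were 7.3% of all genes. Every one of the 6 LY+FGF4 libraries had it at 0, and it ran from 0.89 to 17.9 TPM in DMSO. The share of all genes apart in that direction is not given here. LY+FGF4 libraries also listed fewer genes than DMSO libraries, and the part of this in the zeros was not tested. The call was lost without DMSO replicate 6 or 9 (adjusted p = 0.0903 and 0.0773), with the replicate block (adjusted p = 0.157), in the gene-number fit (adjusted p = 0.0767) and without the 6 libraries under 9000 genes (adjusted p = 0.142).

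Of 32 genes of the BCL2 family, caspases and other death machinery, 27 were tested, and each call was a fall. Falls also outnumbered rises over all genes, with 176 against 118 for FGF4 against DMSO, 340 against 87 for LY+FGF4 against FGF4, 542 against 216 for LY+FGF4 against LY, 879 against 264 for LY+FGF4 against DMSO and 433 against 125 for the pooled LY effect. Bcl2l14, a BCL2-like protein, averaged 22.1 ± 29.3 TPM in LY+FGF4, 110.4 ± 30.9 in LY, 33.6 ± 44.3 in FGF4 and 207 ± 27.2 in DMSO. It fell in LY+FGF4 against LY (-4.07, adjusted p = 0.0107) and in LY+FGF4 against DMSO (-5.02, adjusted p = 0.00330), but in neither in the gene-number fit (adjusted p = 0.133 and 0.153). It also fell with FGF4 against DMSO (-3.68, adjusted p = 0.0388), but that call was lost without any 1 of the 5 DMSO libraries or without FGF4 replicate 2, 4, 5 or 7 (adjusted p = 0.0594 to 0.0987), and in 4 of the 8 settings other than leaving out 1 library (adjusted p = 0.0586 to 0.175).

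Birc5 (survivin, an inhibitor of apoptosis that also acts in mitosis) fell in LY+FGF4 against DMSO (-0.75, adjusted p = 0.00894), but not in the gene-number fit (-0.63, adjusted p = 0.282) or without the 6 libraries under 9000 genes (-0.69, adjusted p = 0.116). Aifm1, a mitochondrial flavoprotein, fell in LY+FGF4 against FGF4 (-1.06, adjusted p = 0.0227), but not without LY+FGF4 replicate 3 or 8 (adjusted p = 0.0560 and 0.0620). Without the 6 libraries under 9000 genes it gave -0.21 (adjusted p = 0.780), and the call was also lost with the replicate block, library weights and the gene-number fit (adjusted p = 0.111 to 0.172). Its fall for the pooled LY effect (-0.70, adjusted p = 0.0344) was called in 17 of 26 fits that left out 1 library. It was lost without DMSO replicate 3, 6, 8 or 9, LY+FGF4 replicate 3, 5 or 8, FGF4 replicate 1 or LY replicate 6 (adjusted p = 0.0515 to 0.0682), and it was -0.28 without the 6 libraries under 9000 genes (adjusted p = 0.435), and not called with no filter, the replicate block or the gene-number fit. With LY against DMSO 0 of 27 were called by limma (4 at an unadjusted p under 0.05, beside 8.59% of all genes), with Birc5 (-0.43, adjusted p = 0.415) and Casp6 (-0.63, adjusted p = 0.475) first.

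Of 23 G1 cyclins, cyclin-dependent kinases, their inhibitors and partners, among them the kinases that p21 inhibits, 20 were tested. With LY against DMSO 0 were called by limma (2 at an unadjusted p under 0.05, beside 8.59% of all genes). Cdk2 (-0.83, adjusted p = 0.402) and Ccne1, the cyclin E1 partner of CDK2 (-1.81, adjusted p = 0.455), came first. Ccne1 was called with library weights (adjusted p = 0.0346), where 496 of all 12034 genes were. For the pooled LY effect Ccne1 fell (-1.81, adjusted p = 0.0404), the 1 of 20 called, where 3.6% of all genes were called lower. That call was kept in 13 of 26 fits that left out 1 library. It was lost without DMSO replicate 3, 7 or 9, LY+FGF4 replicate 2 or 5, FGF4 replicate 4, 5 or 8, or LY replicate 2, 3, 4, 6 or 8 (adjusted p = 0.0517 to 0.0800). Without the 6 libraries under 9000 genes it was -1.07 (adjusted p = 0.352), and it was not called with no filter, the replicate block or the gene-number fit either (adjusted p = 0.0654 to 0.278). The median of Ccne1 was 44.5 TPM in LY+FGF4, 15.1 in LY, 95.1 in FGF4 and 94.5 in DMSO, and 1 LY library reached 281 TPM.

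The CDK inhibitor gene Cdkn1c (p57) fell in LY+FGF4 against LY (-3.76, adjusted p = 0.00668), whichever library was left out, but not in the gene-number fit (-3.22, adjusted p = 0.146). Cdkn1c was the 1 of 20 called in that comparison, where 4.5% of all genes were called lower. It was listed at 0 in 5 of 6 LY+FGF4 libraries and ran from 8.77 to 95.7 TPM with LY. Its mean was 8.44 ± 20.7 TPM in LY+FGF4, 36.01 ± 31.6 in LY, 2.57 ± 3.35 in FGF4 and 6.93 ± 2.05 in DMSO, so Cdkn1c, like Cdkn1a, had its highest group mean with LY alone. Among the other CDK inhibitor genes of the list, Cdkn2c (4.37 TPM) and Cdkn2d (37.7 TPM) also had their highest mean with LY. Cdkn1b had its highest mean in LY+FGF4 (14.4 TPM) and Cdkn2b in DMSO (2.76 TPM). With FGF4 against DMSO 0 of 20 were called (0 at an unadjusted p under 0.05, beside 1865 of all 12034 genes), with Cdkn1c (-1.66, adjusted p = 0.348) and E2f1 (-0.73, adjusted p = 0.391) first. LY on top of FGF4 called 0 of 20 (2 at an unadjusted p under 0.05, beside 2258 of all genes), with Ccne1 (-1.81, adjusted p = 0.152) and E2f4 (0.83, adjusted p = 0.186) first. In LY+FGF4 against DMSO 0 were called (3 at an unadjusted p under 0.05, beside 2975 of all genes), with Cdkn2b (-1.52, adjusted p = 0.153) and Cdkn1c (-2.001, adjusted p = 0.161) first.

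**Figure D4:**
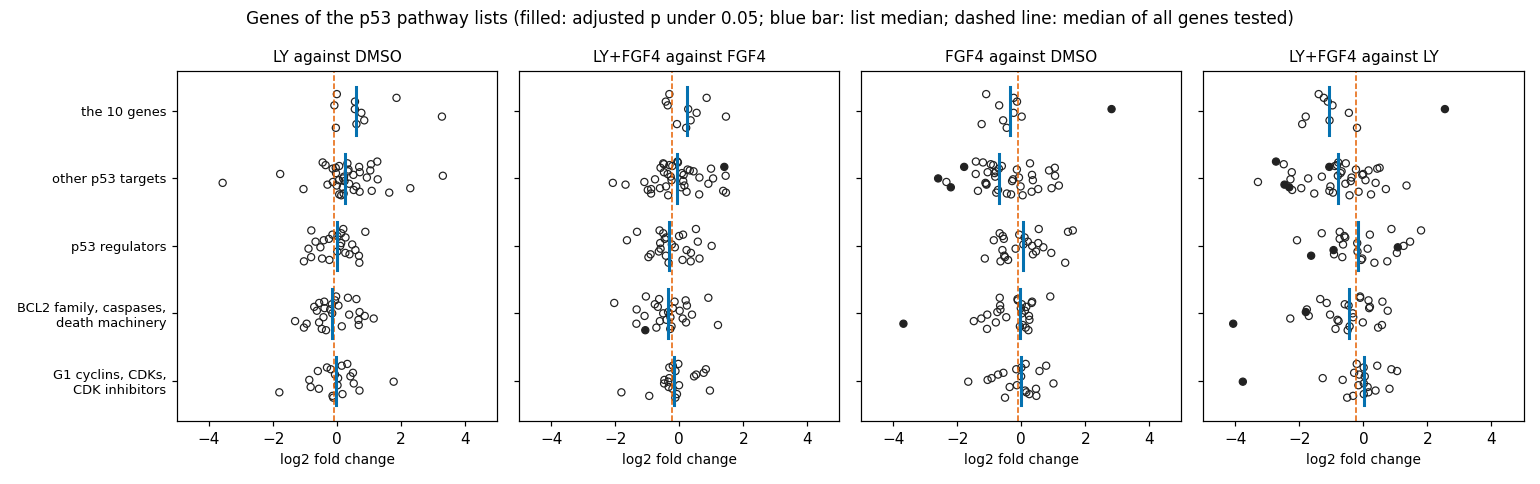
Log2 fold changes (horizontal axis) of the 10 genes and of 4 lists of the pathway (rows) in 4 comparisons. Each circle is a gene, filled where its adjusted p is under 0.05, the blue bar is the list median and the dashed line the median of all genes tested. In LY against DMSO no circle is filled, and the median of the 10 genes lies at 0.58, right of the dashed line at -0.10.

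Of 13 paralogs and partners of the members, 9 were tested and 0 were called by limma in each of the 7 comparisons. At most 2 had an unadjusted p under 0.05 in any of them, beside 726 to 2975 of all 12034 genes. The p53 paralog Trp63 was listed at 0 in every library. Trp73 was above 0 in 1 of 7 LY and 3 of 5 DMSO libraries and was listed at 0 in the others. Mdm4, the MDM2 partner that binds p53, averaged 19.99 ± 5.50 TPM in LY+FGF4, 33.2 ± 15.3 in LY, 27.6 ± 17.4 in FGF4 and 22.3 ± 6.15 in DMSO. Sesn2, a sestrin gene that also responds to ATF4, averaged 70.6 ± 40.0 TPM in LY+FGF4, 46.8 ± 19.9 in LY, 95.6 ± 24.6 in FGF4 and 45.3 ± 10.5 in DMSO. With FGF4 against DMSO, Sesn2 (1.05, adjusted p = 0.109) and the BCL2 family gene Bok (-1.06, adjusted p = 0.240) came first. Both were called with library weights (adjusted p = 0.0126 and 0.0190), where 1074 of all genes were. Bok was not called in LY+FGF4 against LY (-1.04, adjusted p = 0.164) or against DMSO (-0.67, adjusted p = 0.410). Of 34 other settings, only that without the 6 libraries under 9000 genes called it lower (-2.57, adjusted p = 0.00203, and -2.20, adjusted p = 0.00814). LY+FGF4 has only replicates 6 and 7 in that fit. With LY against DMSO, Sesn3 (1.06, adjusted p = 0.857) and Mdm4 (0.47, adjusted p = 0.894) came first, both positive and without a call.

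On GRCm38 (GENCODE M21) Cdkn1a spans 29090976 to 29100727 on chromosome 17, Mdm2 117688875 to 117710758 on chromosome 10, and Trp53 69580359 to 69591873 on chromosome 11. All 10 genes are protein-coding, and values are per gene, not per isoform. Bax overlaps the annotated gene Gm45808 on the same strand, Sesn1 overlaps 9930024M15Rik on the same strand, and Cdkn1a overlaps AC167363.2 on the other strand. How reads in these overlaps were assigned is not known, so the values of Bax, Sesn1 and Cdkn1a are uncertain to that extent.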

How the data were processed

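The deposited values are TPM per gene symbol, computed by the authors, with 1 column per ICM. Per the labels, the data had been trimmed and freed of duplicates. STAR, RSEM and the mm10 build are named in the submitters' processing notes. For tool versions, gene annotation and strand setting, nothing is given in the sources used here. Groups come from the treatment label and columns from the titles, and a replicate is a separate ICM.

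Values were tested as log2(TPM + 1) with limma 3.58.1 in R 4.3.3 (empirical Bayes with trend and robust options) on 12034 genes with 5 or more libraries at a TPM of 1 or more. One model with a mean for each group held all 26 libraries. Tests were two-sided, with Benjamini-Hochberg adjustment within each of 7 comparisons and a threshold of 0.05. The pooled LY effect is the mean of both LY effects, and the interaction is their difference. Alternatives were another pseudocount, other filters, median-ratio scaling, the replicate block, library weights, the number of genes as a covariate, and leaving out libraries.

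The 10 genes, the lists, the alternatives and the naming rule were chosen with earlier results of these data known. The rule names the 10 genes in each comparison and, from each list, at most 4 called genes in each direction or, with no call, the 2 genes with the smallest p. Pairs without a call are left out here for the interaction and for part of the paralog comparisons. Among same-numbered libraries of different groups the median correlation of residuals was -0.00406 (31 pairs), so they were not treated as pairs. Promoter windows are from RefSeq (GRCm38.p6) and gene spans from GENCODE M21. The values of 1 gene of the death machinery list are not reported here.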

Additional observations from a re-analysis of the deposited data

Results flagged for a closer look

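In each group of 4 to 10 libraries, the highest or lowest value of each of the 10 genes was compared with its nearest neighbour by Dixon's ratio on log2(TPM + 1), which chance alone exceeds in about 1 in 20 groups. Of the 40 groups, 5 held such a value, and all 5 were the lowest of their group on that scale. The ratio was not computed on TPM. Trp53 was listed at 0 in LY+FGF4 replicate 2, where the next lowest library had 64.7 TPM. Mdm2 had 9.11 TPM in FGF4 replicate 3, where the next had 76.9 TPM. Bbc3 was listed at 0 in LY replicate 6, where the next had 11.1 TPM, and at 0 in DMSO replicate 7, where the next had 10.1 TPM. Pmaip1 had 90.5 TPM in LY+FGF4 replicate 6, where the next had 232 TPM.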

How the results depend on the processing

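Over 34 other settings, 35 of 70 member results kept their direction and their side of the threshold in every one. In 31 the sign turned in some setting, never past the threshold and with log2 fold changes of at most 1.11 in size. The cause of these changes was not tested. TPM hold no read depth, so what depth limits could not be computed.

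The number of genes called depended more on the setting. For LY against DMSO it was 45, and 496 with library weights, 19 with the number of genes as a covariate and 130 without the 6 libraries under 9000 genes. For FGF4 against DMSO it was 294, and 1074, 181 and 464 in these settings. For LY+FGF4 against FGF4 it was 427, and 111, 187 and 169. For LY+FGF4 against LY it was 758, and 356 with library weights and 108 with the number of genes as a covariate. For LY+FGF4 against DMSO it was 1143, and 75 with that covariate and 601 without the 6 libraries. The interaction called 6, and 28 without the 6 libraries, and the pooled LY effect 558, and 268 with the covariate.

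Same-numbered libraries share only a number. With the replicate block the calls were 5 for LY against DMSO, 41 for FGF4 against DMSO, 224 for LY+FGF4 against FGF4, 460 for LY+FGF4 against DMSO, 2 for the interaction and 219 for the pooled LY effect. Pmaip1 kept its 3 calls under the block, and the pooled LY effect on Cdkn1a was 2.40 (adjusted p = 0.103).

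Members called went to 1 for LY against DMSO with library weights (Cdkn1a, 2.97) and to 0 for LY+FGF4 against LY without the 6 libraries (Pmaip1, 2.01). For the pooled LY effect it was 0 with a pseudocount of 0.1 (Cdkn1a, 2.79), with no filter (2.36), with the block, with library weights (2.19) and without the 6 libraries (2.31). Over the 26 fits without 1 library, 16 to 60 genes were called for LY against DMSO (fewest without DMSO replicates 3, 6, 8 and 9) and 114 to 432 for FGF4 against DMSO (fewest without DMSO replicates 3, 6 and 7). They were 283 to 581 for LY+FGF4 against FGF4 (fewest without FGF4 replicate 7), 523 to 865 for LY+FGF4 against LY and 671 to 1284 for LY+FGF4 against DMSO (fewest without DMSO replicates 3, 6, 7 and 8). They were 2 to 11 for the interaction (moved by DMSO replicates 3 and 8, LY+FGF4 replicate 3 and LY replicates 4 and 8) and 400 to 667 for the pooled LY effect. Members called were 1 to 2 for LY+FGF4 against LY (Ccng1, -1.29 to -0.91) and 0 to 1 for the pooled LY effect (Cdkn1a, 1.85 to 2.63).

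With a pseudocount of 0.1 these had the opposite sign, for LY against DMSO Zmat3 0.053 and for the pooled LY effect Trp53 -0.20 and Bbc3 -0.016. With median-ratio scaling these had the opposite sign, for LY against DMSO Zmat3 0.021. With the number of genes as a covariate these had the opposite sign, for LY against DMSO Zmat3 0.010, Sesn1 0.23 and Bax 0.0076, for FGF4 against DMSO Trp53 0.41, Mdm2 0.041 and Trp53inp1 0.34, for LY+FGF4 against FGF4 Trp53 0.70, Sesn1 0.29 and Bbc3 0.54, for LY+FGF4 against LY Trp53 0.012 and Mdm2 0.13, for LY+FGF4 against DMSO Trp53 1.11 and Ccng1 0.23, for the interaction Mdm2 0.085 and Sesn1 0.066 and for the pooled LY effect Sesn1 0.26. With the replicate block these had the opposite sign, for LY against DMSO Bax 0.018, for FGF4 against DMSO Trp53 0.18 and Cdkn1a -0.54, for LY+FGF4 against FGF4 Bbc3 0.45 and for the interaction Zmat3 0.18, Bbc3 0.28 and Pmaip1 0.11. Without the 6 libraries under 9000 genes these had the opposite sign, for FGF4 against DMSO Mdm2 0.24 and Trp53inp1 0.45, for LY+FGF4 against FGF4 Trp53 0.46, Trp53inp1 -0.94, Sesn1 0.13, Pmaip1 -0.70 and Sesn2 0.17, for LY+FGF4 against DMSO Trp53 0.31 and Trp53inp1 -0.49, for the interaction Sesn1 0.21, Aifm1 0.14 and Sesn2 0.21 and for the pooled LY effect Sesn1 0.019, Bbc3 -0.83, Pmaip1 -0.077 and Sesn2 0.061. With library weights these had the opposite sign, for FGF4 against DMSO Cdkn1a -0.13 and for LY+FGF4 against FGF4 Trp53 0.15 and Pmaip1 -0.036. Leaving out 1 library at a time turned the sign of log2 fold changes with these ranges. For LY against DMSO Zmat3 -0.44 to 0.34, Sesn1 -0.23 to 0.059, Bax -0.16 to 0.072 and Bbc3 -0.13 to 1.19. For FGF4 against DMSO Trp53 -0.31 to 0.050, Mdm2 -0.57 to 0.26, Cdkn1a -1.02 to 0.55 and Trp53inp1 -0.56 to 0.057. For LY+FGF4 against FGF4 Trp53 -0.76 to 0.68, Zmat3 -0.60 to 0.010, Bbc3 -0.72 to 0.41 and Pmaip1 -0.026 to 0.55. For LY+FGF4 against DMSO Trp53 -0.89 to 0.54 and Mdm2 -0.13 to 0.74. For the interaction Trp53 -1.31 to 0.12, Mdm2 -0.71 to 0.23, Zmat3 -0.65 to 0.14, Sesn1 -0.49 to 0.015, Bbc3 -1.32 to 0.061 and Pmaip1 -0.65 to 0.041. For the pooled LY effect Trp53 -0.10 to 0.62, Zmat3 -0.38 to 0.015 and Bbc3 -0.10 to 0.56.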
